A study of Mus musculus with 12 samples.

Results

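Hearts of diabetic mice infused with angiotensin IV were compared with hearts of control mice that had neither diabetes nor the peptide. The AngIV group was given streptozotocin, a toxin of pancreatic beta cells, by intraperitoneal injection for 5 days. Its mice had a fasting glucose of at least 16.7 mM 2 weeks later. They received 2.88 mg/kg/day of angiotensin IV by infusion, called high-dose in the titles. The infusion began at the end of week 8 and ended at the end of week 24, recorded as 4 months of treatment. The NC group received 5 daily vehicle injections. An untreated diabetic group, DM, underwent the same streptozotocin injections and the same glucose threshold without the peptide, and its values are set beside the others because AngIV against NC combines diabetes and peptide. Myocardium was labelled 6 months in every group, and strain, sex and the hour of tissue collection were not given in the labels. Each group had 4 mice with 1 Affymetrix array each, so 8 of the series' 12 arrays are compared. The DM arrays entered the fit and its estimate of the spread. The members were chosen by sample title, since the disease state tag gives diabetes for NC and negative control for AngIV, against titles, source names and design.

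Angiotensin IV is a short peptide cut from angiotensin II. It binds the insulin-regulated aminopeptidase, encoded by Lnpep, for which no probe set was named. Several pathways that follow insulin, fasting and daily rhythm act in heart muscle. FoxO transcription factors are held in the cytoplasm by insulin signalling through AKT and otherwise switch on genes of protein breakdown and autophagy. Glucocorticoids act through a nuclear receptor that raises genes such as Fkbp5 and Zbtb16. In the circadian clock, the proteins made from Arntl and Clock bind E-box sequences and drive the Per, Cry and Nr1d genes, whose products shut off Arntl, Clock or their activity. Interferons act through STAT factors on GTPases that guard the cell against microbes and on class I antigen presentation. The series title places FoxO1 and autophagy at the centre of the study, and both are described with these pathways.

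The promoter sequences are shown for some of the called genes in which a motif of the interferon or clock pathway was found. Those pathways were taken because they held genes that moved together. Ifit2, Gbp2, Gbp3, B2m and Tef also held a motif and are not printed. Each printed sequence is the 250 bases before the gene's start on the gene's own strand, from RefSeq on build GRCm38.p6. Capitals mark the interferon-stimulated response element (GAAA, any 2 bases, GAAA) and the STAT-binding GAS element TTCNNNGAA in the GTPase genes. They mark the D-box TTANNTAA in Per3 and the E-box CACGTG in Ciart. Igtp lies at chr11:58199306-58199555 (plus strand), Irgm1 at chr11:48871421-48871670 (minus strand), Irgm2 at chr11:58214727-58214976 (plus strand) and Tgtp2 at chr11:49064213-49064462 (minus strand). Per3 lies at chr4:151044666-151044915 (minus strand) and Ciart at chr3:95882229-95882478 (minus strand).
Igtp: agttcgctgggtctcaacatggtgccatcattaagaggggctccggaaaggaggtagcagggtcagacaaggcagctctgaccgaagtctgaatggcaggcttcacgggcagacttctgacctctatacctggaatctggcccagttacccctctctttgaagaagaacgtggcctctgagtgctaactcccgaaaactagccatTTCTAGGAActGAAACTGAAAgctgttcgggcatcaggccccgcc
Irgm1: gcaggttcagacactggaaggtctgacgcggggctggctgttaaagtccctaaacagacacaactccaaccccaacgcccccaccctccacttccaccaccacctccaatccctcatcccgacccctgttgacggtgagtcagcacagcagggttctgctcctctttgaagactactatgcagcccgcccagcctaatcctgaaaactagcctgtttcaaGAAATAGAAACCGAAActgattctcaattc
Irgm2: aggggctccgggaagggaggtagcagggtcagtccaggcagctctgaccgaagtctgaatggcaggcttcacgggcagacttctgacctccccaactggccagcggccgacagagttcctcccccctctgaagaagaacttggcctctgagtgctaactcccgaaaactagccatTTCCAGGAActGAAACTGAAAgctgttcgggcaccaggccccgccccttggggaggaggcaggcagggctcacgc
Tgtp2: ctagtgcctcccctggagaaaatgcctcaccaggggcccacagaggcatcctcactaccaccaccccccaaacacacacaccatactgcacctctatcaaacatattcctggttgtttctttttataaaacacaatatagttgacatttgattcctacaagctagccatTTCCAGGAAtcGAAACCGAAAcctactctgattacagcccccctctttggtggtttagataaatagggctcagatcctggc
Per3: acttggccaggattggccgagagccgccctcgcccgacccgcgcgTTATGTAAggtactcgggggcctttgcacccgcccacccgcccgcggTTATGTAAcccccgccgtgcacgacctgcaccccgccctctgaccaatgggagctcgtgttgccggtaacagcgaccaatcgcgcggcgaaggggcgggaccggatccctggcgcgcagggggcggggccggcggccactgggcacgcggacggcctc
Ciart: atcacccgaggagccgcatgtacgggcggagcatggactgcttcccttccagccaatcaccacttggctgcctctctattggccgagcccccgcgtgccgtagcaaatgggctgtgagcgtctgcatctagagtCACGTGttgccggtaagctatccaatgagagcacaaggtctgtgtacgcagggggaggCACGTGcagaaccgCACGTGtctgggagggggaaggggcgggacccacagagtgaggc

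Both strands were searched, and matches of different motifs may overlap. Of the 13 interferon and antigen presentation genes that passed the test below, 12 had a promoter window, and Iigp1 had none. The response element was in 7 of the 12 (Igtp, Irgm1, Irgm2, Tgtp2, Gbp2, Gbp3 and B2m), against 2.54% of 10965 windows of tested genes. The GAS element was in 4 (Ifit2, Igtp, Irgm2 and Tgtp2), against 6.09% of windows. The GTPase genes are near copies of each other, so their windows are not independent. Of 8 clock genes that passed the test, 7 had a window and Per2 had none. The E-box was in 2 (Tef and Ciart), against 8.13% of windows, and the D-box in 2 (Per3 and Tef), against 3.21%. The element bound by the ROR and REV-ERB receptors, TAGGTCA, was in 0 of 7, against 1.63% of windows.

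Signals are log2 values made by RMA, which puts all arrays on the same distribution. Of 19505 named genes, 13653 were tested after the dimmest 30% were left out. The background level was taken as the 95th percentile of negative controls, 5.53 in AngIV and 5.48 in NC. Genes whose mean was lower than that in either group are described as near background and given a log2 difference but no fold. Median SD between arrays was 0.147 in AngIV and 0.176 in NC. Correlations between arrays were 0.980 to 0.986 within AngIV and 0.961 to 0.982 within NC. Cardiomyocyte markers matched the labelled tissue, with a mean log2 signal over 14 genes of 11.09 to 11.19 in AngIV and 11.01 to 11.18 in NC. Positive log2 changes mean higher in AngIV. Called genes are those whose limma p, adjusted over all tested genes, was under 0.05.

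Atrial genes divided the arrays. Myl7, a myosin light chain of atrial muscle, had log2 signals of 3.94, 3.58, 3.53 and 3.84 in AngIV, 8.86, 9.68, 3.97 and 8.10 in DM, and 10.08, 4.28, 7.90 and 3.72 in NC. Sln, an atrial regulator of the calcium pump, had 5.09, 4.83, 5.02 and 5.01 in AngIV, 7.65, 8.83, 5.16 and 7.28 in DM, and 9.35, 5.34, 7.32 and 5.16 in NC. NC replicates 1 and 3 and DM replicates 1, 2 and 4 were thus high in both, while no AngIV array was. Of 10 tested markers of atrium and conduction system, 2 were higher in AngIV (50.6% over all genes) and 8 lower, and 0 were called (2.15% over all genes). Their mean signal was 5.38 to 5.60 in AngIV, 5.17 to 7.33 in DM and 5.44 to 7.55 in NC. Comparisons below were therefore repeated with the mean of Myl7, Myl4 and Sln as a covariate, and without NC replicates 1 and 3. In these pieces of tissue, fewer cells of a type and less RNA per cell cannot be told apart.

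**Figure D1:**
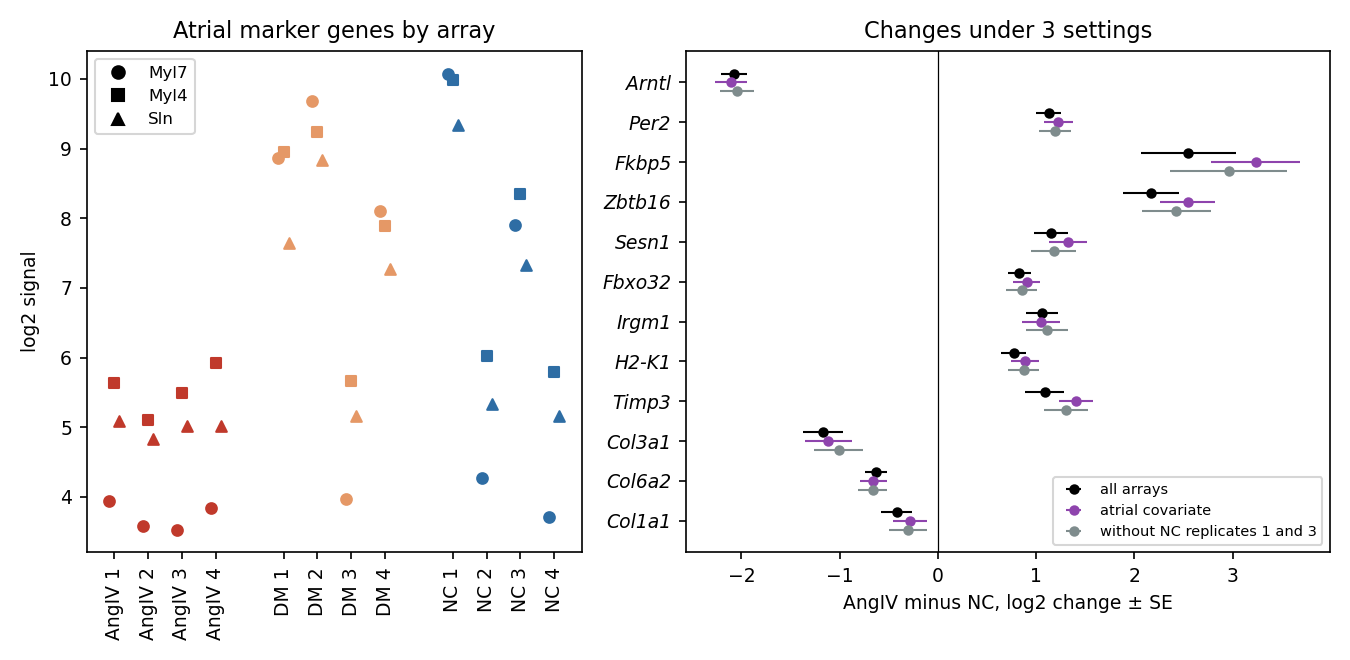
Left, log2 signal of Myl7, Myl4 and Sln on each array of AngIV, DM and NC, where NC replicates 1 and 3 and DM replicates 1, 2 and 4 stand high. Right, log2 change of AngIV against NC for 12 genes (points, bars are SE) with all arrays, with the atrial mean as a covariate and without NC replicates 1 and 3; Arntl stays near -2.07 and Col3a1 near -1.17, and most bars widen when arrays are left out.

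Between AngIV and NC, 293 of 13653 genes (2.15%) were called. Of these, 208 were higher in AngIV (1.52% of genes tested) and 85 lower (0.623%). The higher share of called genes was 71.0%, or 58.5% when arrays were centred on the positive-control probe sets. Effects were moderate, with a median absolute log2 change of 0.65 and 45 genes at or past 1 (34 higher, 11 lower). The arrays of AngIV and NC did not overlap for 291 of the called genes, against 12.8% of all genes tested. Both groups lay above background for 188 called genes. The first principal component of the 8 arrays held 29.5% of the variance and separated the groups, at 10.1 to 17.9 in AngIV and -16.5 to -11.9 in NC. At an unadjusted p under 0.05 there were 2542 genes (18.6%). In the same fit, 3 genes were called between DM and NC (0.022%; Arntl, Abat and Epha4) and all 3 were also called between AngIV and NC. Between AngIV and DM 0 genes were called with limma, the smallest adjusted p being 0.177, and 1199 genes had an unadjusted p under 0.05. These comparisons share arrays, so DM values are given only side by side. Leaving out 1 array at a time left 104 to 251 calls, and 75 of the 293 genes (54 higher, 21 lower) were called each time. There were 104 calls without AngIV replicate 4, 106 without AngIV replicate 3, 155 without AngIV replicate 2, 107 without NC replicate 2, 163 without NC replicate 1 and 185 without NC replicate 4. Of the 71 called genes that the naming rule took, Calcoco1, Gbp2, Gbp3 and Pygb passed in none of these 8 fits, and Ciart, Fabp4, Irf9, Klf15 and Tgfbr3 passed in 1. Cry2, Cyp1a1, Eif4ebp1, Hspb1, Igtp, Pfkfb3, Psmd4, Slc27a1, Sult1a1, Tap1 and Trpm7 passed in 2, and Cpt1a, Fmo2, Mt2 and Tgtp2 in 3. The highest adjusted p of these genes was 0.122 (Gbp3 and Ciart). With the atrial covariate 310 genes were called (2.27%), 197 of them among the 293, and without NC replicates 1 and 3 there were 25 (0.183%), all among the 293. Leaving out other pairs of NC arrays gave 12 to 119. Of the 71, Calcoco1, Ciart, Cpt1a, Cry2, Cyp1a1, Fabp4, Gbp2, Gbp3, Hspb1, Igtp, Pygb, Slc27a1, Tap1 and Tgfbr3 missed the threshold with the atrial covariate, at adjusted p of 0.0553 (Tgfbr3) to 0.151 (Ciart).

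**Figure D2:**
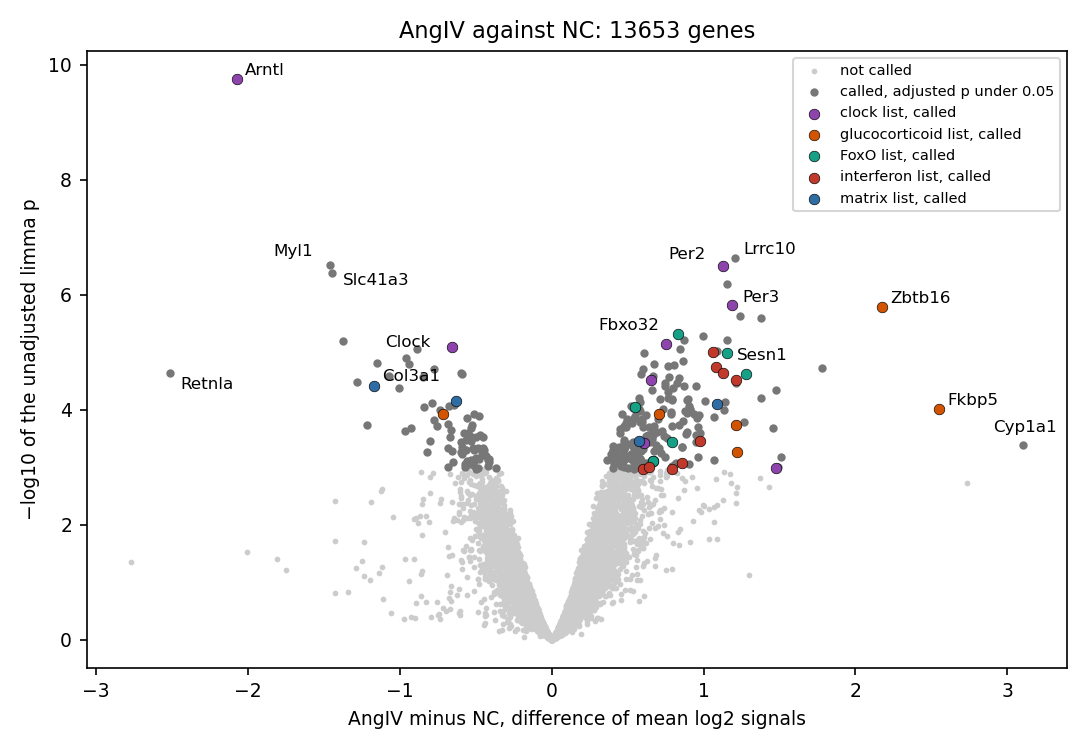
Log2 change of AngIV against NC (horizontal) and minus log10 of the unadjusted limma p (vertical) for 13653 genes, with called members of the described gene lists in colour. Arntl stands alone at the top left with a log2 change of -2.07, and Zbtb16, Fkbp5 and Cyp1a1 lie far to the right.

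The clock genes held the gene with the smallest p of the comparison. The activators Arntl and Clock were called lower, and the 6 called higher were Per2, Per3, Nr1d2, Cry2, Ciart and Tef. Of 20 tested members, 6 were higher (1.52% over all genes), 2 were lower (0.623%), and the median log2 change was 0.48 (0.003 over all genes). Arntl, which encodes the activator BMAL1 (chromosome 7), had log2 signals of 3.52, 3.64, 3.55 and 4.10 in AngIV, 4.44, 4.21, 4.51 and 4.44 in DM, and 5.72, 5.94, 5.89 and 5.57 in NC. All AngIV arrays lay below all NC arrays, with the DM arrays in between, and the change was -2.07 ± 0.13 (SE, n = 4 each, adjusted p = 2.39e-06), with AngIV near background. Clock, which encodes the partner of BMAL1, had 7.28, 7.20, 7.13 and 6.99 in AngIV and 7.75, 7.83, 7.87 and 7.79 in NC. The groups did not overlap, and Clock was 1.58-fold lower in AngIV (log2 change -0.66 ± 0.10, adjusted p = 0.00617).

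The called repressors Per2, Per3, Nr1d2, Cry2 and Ciart were higher, while Nr1d1, Per1 and Cry1 were not called. Per2, a repressor of BMAL1 and CLOCK, had 5.71, 6.00, 5.54 and 5.68 in AngIV, 5.42, 5.32, 5.11 and 5.02 in DM, and 4.80, 4.38, 4.54 and 4.70 in NC. The 3 groups did not overlap, and AngIV exceeded NC by 1.13 ± 0.13 (adjusted p = 0.00106), near background. Per3, a relative of Per2 whose promoter is shown above, had 6.74, 6.55, 6.50 and 6.39 in AngIV, 6.31, 6.46, 6.03 and 5.92 in DM, and 5.56, 4.93, 5.39 and 5.56 in NC. AngIV lay above NC on every array, by 1.19 ± 0.15 (adjusted p = 0.00282), also near background. Nr1d2, which encodes REV-ERB beta, a repressor of Arntl, had 7.95, 8.07, 7.80 and 7.89 in AngIV, 7.81, 7.57, 7.63 and 7.64 in DM, and 6.91, 7.13, 7.38 and 7.26 in NC. It was 1.69-fold higher in AngIV without overlap (0.76 ± 0.11, adjusted p = 0.00602).

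Cry2, a repressor that acts with the PER proteins, was 1.53-fold higher (adjusted p = 0.0300). Tef, a D-box activator, had a change of 0.65 (adjusted p = 0.00876), near background. Ciart, a repressor of the BMAL1 and CLOCK complex, had a change of 1.47 ± 0.36 (adjusted p = 0.0485), near background. It was called in only 1 of the 8 fits that left out an array. Other loop members did not pass: Dbp had a change of 0.56 (adjusted p = 0.317), Nr1d1 of -0.54 (0.233), Per1 of 0.49 (0.141), Cry1 of 0.40 (0.180) and Rora of 0.76 (0.0502). Arntl, Clock, Per2, Per3, Nr1d2 and Tef were called whichever array was left out. With the atrial covariate 4 members were higher and 3 lower, and without NC replicates 1 and 3 there were 3 and 1.

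**Figure D3:**
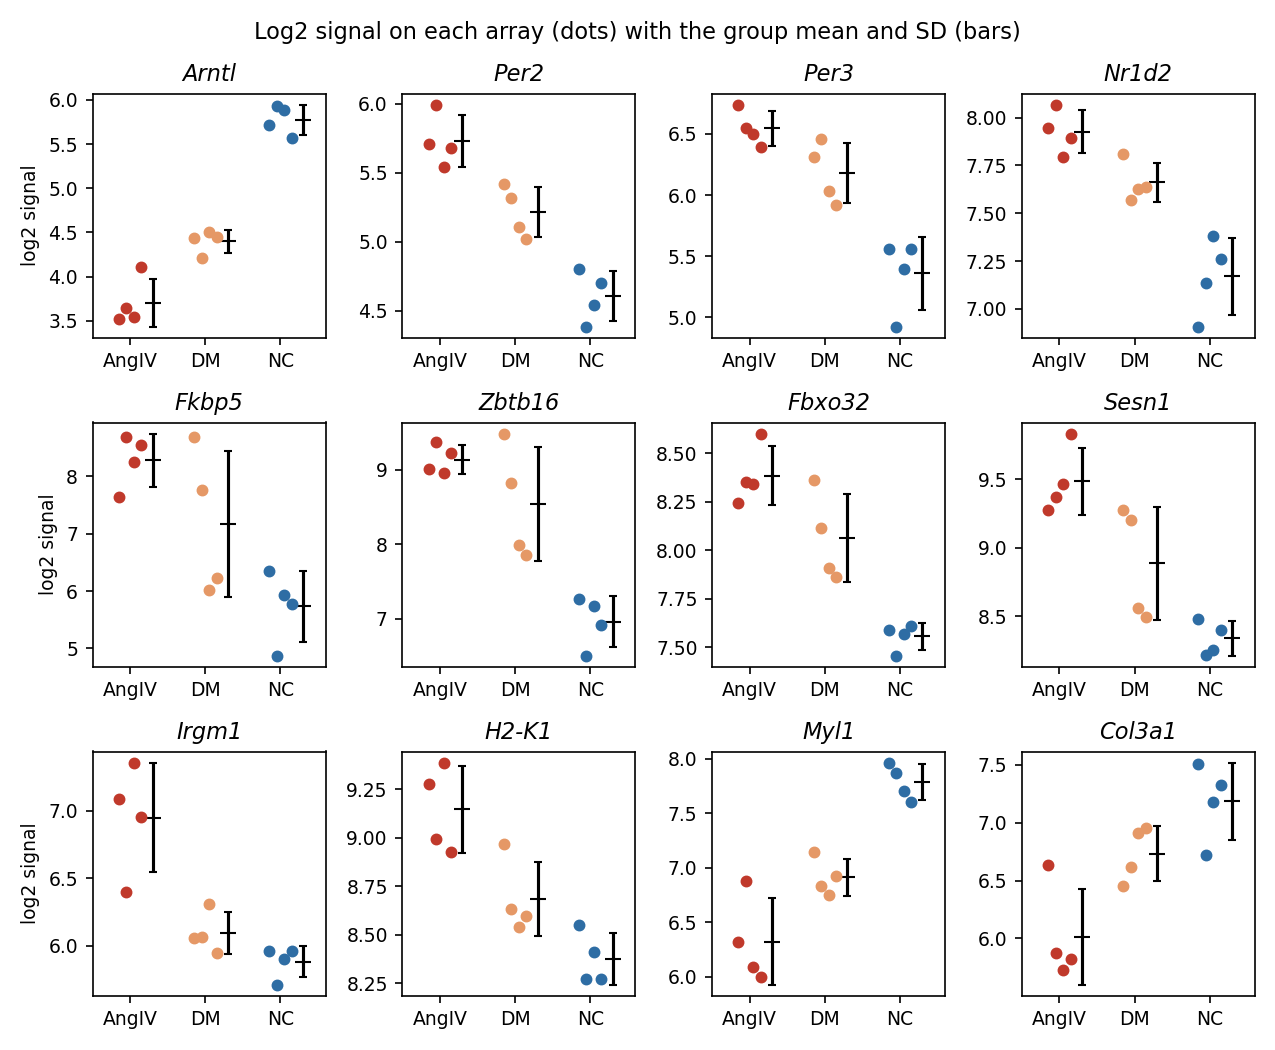
Log2 signal of 12 genes on every array, 1 panel a gene, with AngIV, DM and NC from left to right; dots are arrays and bars the mean and SD of 4. AngIV and NC do not overlap in any panel, with Arntl, Myl1 and Col3a1 lower and the other genes higher in AngIV, and the DM arrays of Fkbp5 (6.02 to 8.69) and Zbtb16 (7.85 to 9.48) are widely spread.

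Glucocorticoid-responsive genes included the largest changes above background. Of 17 tested, 6 were higher (1.52% over all genes) and 1 was lower (0.623%), with a median change of 0.49. Zbtb16, a zinc-finger repressor induced by glucocorticoids, had 9.0, 9.37, 8.95 and 9.22 in AngIV, 9.48, 8.82, 7.99 and 7.85 in DM, and 7.26, 6.51, 7.16 and 6.91 in NC. Every AngIV array exceeded every NC array, DM replicate 1 lay above all AngIV arrays and the other DM arrays lay below them. AngIV was 4.51-fold higher than NC (2.17 ± 0.28, adjusted p = 0.00282). Fkbp5, a chaperone that tunes the glucocorticoid receptor, had 7.64, 8.69, 8.25 and 8.55 in AngIV, 8.69, 7.76, 6.02 and 6.24 in DM, and 6.35, 4.88, 5.93 and 5.77 in NC. The groups AngIV and NC did not overlap, with a 5.86-fold difference (2.55 ± 0.48, adjusted p = 0.0157), which missed the threshold without AngIV replicate 4 (adjusted p = 0.0512) or NC replicate 2 (0.0515).

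The metallothioneins Mt1 and Mt2, metal-binding proteins that glucocorticoids also induce, were 1.63-fold and 2.32-fold higher (adjusted p = 0.0165 and 0.0205). Mt2 had 9.39, 9.02, 9.35 and 9.77 in AngIV, 10.02, 9.98, 9.35 and 9.31 in DM, and 8.94, 8.03, 8.03 and 7.70 in NC, so that DM overlapped AngIV. Klf15, a regulator of amino acid and lipid use in heart, was 1.59-fold higher (adjusted p = 0.0412), and the sulfotransferase Sult1a1 was 2.33-fold higher (0.0351). The exception was Dusp1, a MAP kinase phosphatase, with 7.42, 7.93, 7.46 and 7.37 in AngIV and 8.24, 8.30, 8.25 and 8.23 in NC. It was 1.64-fold lower without overlap (-0.71 ± 0.14, adjusted p = 0.0165). Tsc22d3, a further target, had a change of 0.84 (adjusted p = 0.141), Sgk1 of -0.21 (0.527) and the receptor gene Nr3c1 of -0.09. Zbtb16 alone of the list was called in all 8 fits that left out an array, which gave 1 to 6 higher and 0 to 1 lower. With the atrial covariate the counts were 6 and 1, and without NC replicates 1 and 3 they were 2 and 0.

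FoxO-regulated genes were shifted upward while Foxo1 was not called. Of 31 tested genes of the FoxO list, 24 had a positive change (50.6% over all genes). Of the 31, 6 were called higher (1.52% over all genes) and 0 lower (0.623%), with a median of 0.36. Foxo1 itself had 5.72, 5.25, 5.73 and 5.72 in AngIV and 5.74, 5.51, 5.41 and 5.66 in NC. The groups overlapped, and the change was 0.02 ± 0.14 (95% interval -0.27 to 0.31, adjusted p = 0.953). Foxo3, its relative, had 5.98, 6.34, 6.36 and 6.29 in AngIV and 5.74, 5.77, 5.54 and 5.73 in NC. It was 1.46-fold higher (0.55 ± 0.10, adjusted p = 0.0154), and missed the threshold without AngIV replicate 3 (0.0546) or 4 (0.0522). Foxo4 had a change of -0.03 (adjusted p = 0.928).

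Among the genes that FoxO factors regulate, Fbxo32, the muscle ubiquitin ligase atrogin-1, had 8.25, 8.35, 8.34 and 8.60 in AngIV, 8.36, 8.11, 7.91 and 7.86 in DM, and 7.59, 7.46, 7.57 and 7.61 in NC. AngIV was 1.78-fold higher than NC without overlap (0.83 ± 0.12, adjusted p = 0.00573). Sesn1, a stress protein that restrains mTORC1, had 9.27, 9.37, 9.47 and 9.83 in AngIV, 9.28, 9.20, 8.56 and 8.49 in DM, and 8.48, 8.22, 8.25 and 8.40 in NC. It was 2.22-fold higher without overlap (1.15 ± 0.18, adjusted p = 0.00617), and DM replicates 1 and 2 stood close to AngIV. Pik3ip1, an inhibitor of PI3K, had 8.45, 8.81, 8.71 and 9.21 in AngIV, 8.76, 8.91, 8.14 and 8.36 in DM, and 7.95, 7.0, 7.52 and 7.61 in NC. Its 2.42-fold difference from NC (1.28 ± 0.21, adjusted p = 0.00819) was also without overlap.

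Klf15 and Eif4ebp1, an mTORC1-controlled repressor of translation (1.73-fold, adjusted p = 0.0290), completed the list's calls. Trim63, the ligase MuRF1, did not pass (0.64, adjusted p = 0.0518), nor did Bnip3 (0.56, 0.0761) or Txnip (0.55, 0.223). Fbxo32, Sesn1 and Pik3ip1 were called in all 8 fits that left out an array. The list had 7 called higher with the atrial covariate and 1 without NC replicates 1 and 3. In the insulin, PI3K and mTOR list, 4 of 26 were higher (1.52% over all genes) and 0 lower (0.623%). The median was 0.10 (0.003 over all genes). Pik3ip1, Sesn1 and Eif4ebp1 were already counted on the FoxO list. The fourth was Pik3r1, the regulatory subunit of PI3K (1.83-fold, 0.87 ± 0.17, adjusted p = 0.0159). Its call was lost without AngIV replicate 4 (0.0558) or NC replicate 2 (0.0515).

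Of the 45 tested genes of autophagy and lysosome, 31 had positive changes (50.6% over all genes), with a median of 0.15. With all arrays 1 was called higher (1.52% over all genes) and 0 lower (0.623%). The called gene was Calcoco1, a receptor for autophagy of the endoplasmic reticulum, with 7.94, 8.05, 7.78 and 7.94 in AngIV and 7.40, 7.39, 7.47 and 7.54 in NC. It was 1.39-fold higher without overlap (0.47 ± 0.11, adjusted p = 0.0409), and passed in none of the 8 fits that left out an array. Map1lc3b, the autophagosome protein LC3B, had 9.04, 8.93, 9.02 and 9.15 in AngIV and 8.55, 8.65, 8.64 and 8.71 in NC, and Sqstm1, the cargo receptor p62, had 9.76, 9.48, 9.57 and 9.78 in AngIV and 9.28, 9.09, 9.30 and 9.29 in NC. For both, all AngIV arrays lay above all NC arrays, which held for 11 of the 45 genes (7.59% of all genes), while 3 lay below (5.17%). Neither gene passed the test with all arrays, with changes of 0.40 and 0.41 (adjusted p = 0.0728 and 0.0657). With the atrial covariate Sqstm1 was called (0.51, adjusted p = 0.0459) and Map1lc3b was not (0.43, 0.106). Calcoco1 missed the threshold in that setting (adjusted p = 0.0669), where 2 list members were called higher and 0 lower. Without NC replicates 1 and 3 the list had 0 higher and 0 lower. Becn1, a subunit of the lipid kinase that starts autophagosomes, had a change of 0.06 ± 0.09 (95% interval -0.14 to 0.26, adjusted p = 0.784). Ulk1 (0.49, adjusted p = 0.0764), Gabarapl1 (0.50, 0.109) and Atg7 (0.24, 0.405) did not pass either. Transcript levels do not measure the flow of autophagy.

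**Figure D4:**
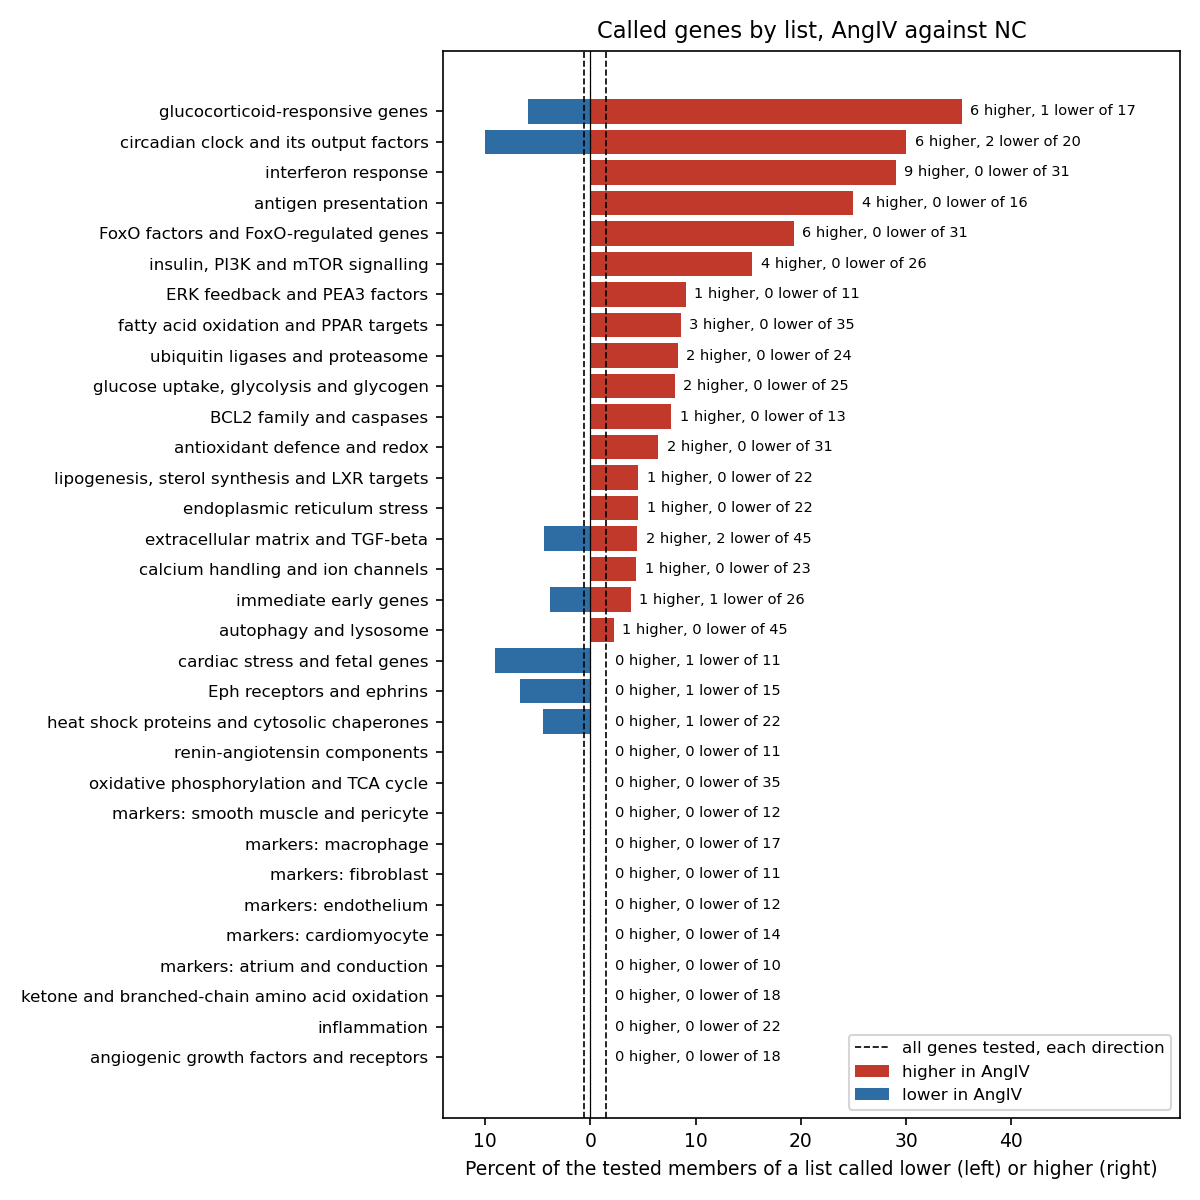
Percent of tested members called lower (left) and higher (right) in AngIV than NC for every gene list with at least 10 tested members; dashed lines mark the same share over all genes, 0.623% lower and 1.52% higher. The clock, glucocorticoid, interferon, antigen presentation and FoxO lists extend far to the right, and the oxidative phosphorylation list has no bar.

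Interferon-responsive genes were higher on the AngIV arrays. The change was positive in 30 of the 31 genes tested (50.6% over all genes), with 9 called higher (1.52% over all genes), 0 lower and a median of 0.52. The mean signal of the list was 5.71, 5.10, 5.64 and 5.36 in AngIV, 5.09, 5.01, 5.23 and 5.22 in DM, and 5.05, 4.77, 4.89 and 4.87 in NC, with AngIV replicate 2 the lowest of its group. Irgm1, an immunity-related GTPase, had 7.09, 6.40, 7.36 and 6.95 in AngIV, 6.06, 6.07, 6.31 and 5.95 in DM, and 5.96, 5.71, 5.90 and 5.96 in NC. AngIV exceeded both other groups on every array and was 2.09-fold higher than NC (1.06 ± 0.16, adjusted p = 0.00617). Iigp1, a GTPase of the same family, had 6.92, 6.47, 7.65 and 7.11 in AngIV, 5.81, 6.14, 6.17 and 6.18 in DM, and 6.15, 5.88, 5.82 and 5.45 in NC. Again AngIV lay above both groups, 2.32-fold over NC (1.21 ± 0.20, adjusted p = 0.00876). Irgm2 was 2.19-fold higher (adjusted p = 0.00819), Igtp 1.97-fold (0.0285) and Tgtp2 1.81-fold (0.0436). These GTPase genes are similar in sequence, and whether probes separate them was not tested. Ifit2, an inhibitor of viral translation, had a change of 1.08 (adjusted p = 0.00780), near background, as were the guanylate-binding proteins Gbp2 (0.64, 0.0479) and Gbp3 (0.79, 0.0499) and the signalling factor Irf9 (0.60, 0.0496). Ifit2, Irgm1, Irgm2 and Iigp1 were called whichever array was left out; the list's count was 4 to 11.

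In the antigen presentation list, 4 of 16 tested genes were higher (1.52% over all genes), all of class I presentation, and 0 lower. Changes were positive in 11 (50.6% over all genes) and negative in 5, with a median of 0.23. The list mean was 6.78, 6.54, 6.73 and 6.39 in AngIV and 6.48, 6.41, 6.31 and 6.27 in NC, so the groups overlapped. H2-K1, a class I heavy chain, had 9.28, 8.99, 9.39 and 8.93 in AngIV, 8.97, 8.63, 8.54 and 8.60 in DM, and 8.55, 8.27, 8.41 and 8.27 in NC. It was 1.70-fold higher without overlap with NC (0.77 ± 0.13, adjusted p = 0.00833). H2-D1, a second heavy chain of high sequence similarity, was 1.68-fold higher (adjusted p = 0.00926). B2m, the light chain they share, had 11.50, 11.11, 11.47 and 11.16 in AngIV and 10.70, 10.71, 10.78 and 10.74 in NC. Its 1.49-fold difference (0.58 ± 0.11, adjusted p = 0.0157) had no overlap and missed the threshold without AngIV replicate 3 (0.0553). Tap1, which carries peptides into the endoplasmic reticulum, had a change of 0.69 (adjusted p = 0.0313), near background.

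Most macrophage markers also had positive changes: 16 of 17 tested were higher (50.6% over all genes), 0 were called, and the median was 0.34. Their mean signal was 6.19, 6.36, 6.28 and 5.70 in AngIV, 5.57 to 6.66 in DM, and 5.60 to 5.76 in NC. The interferon means of AngIV replicates 1 to 4, in the same order, were 5.71, 5.10, 5.64 and 5.36. In DM the macrophage means were 6.66, 6.04, 6.09 and 5.57 and the interferon means 5.09, 5.01, 5.23 and 5.22. In NC the macrophage means were 5.76, 5.60, 5.68 and 5.60 and the interferon means 5.05, 4.77, 4.89 and 4.87. Cd163, Mpeg1 and Ms4a7 had changes of 1.18, 1.43 and 1.21 (adjusted p = 0.0595, 0.0644 and 0.0849), near background, while Adgre1 and C1qa had 0.13 and 0.17. Lymphocyte markers averaged 3.91 to 4.02 in AngIV and 3.79 to 4.07 in NC. The part of immune cells in the interferon result was not tested. With the atrial covariate, 7 interferon and 3 antigen presentation genes were higher, and without NC replicates 1 and 3 there were 1 and 1. The interferon median was 0.63 and 0.64 in those settings.

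**Figure D5:**
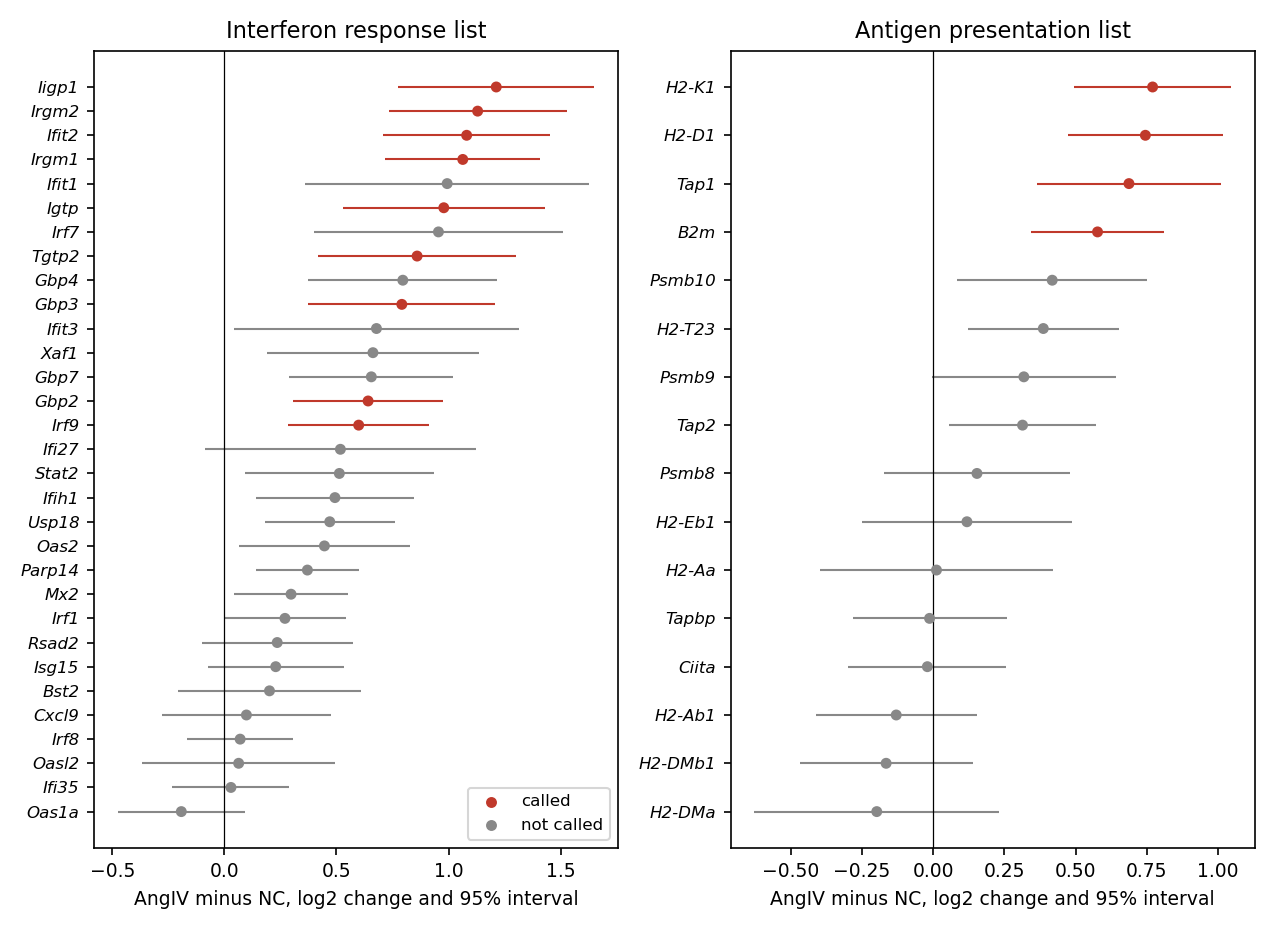
Log2 change of AngIV against NC with its 95% interval for each tested gene of the interferon and antigen presentation lists; red marks called genes. Irgm1, Irgm2, Iigp1, Ifit2 and Igtp lie near or past 1, and 30 of 31 interferon genes lie right of 0.

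Metabolic genes changed in a small part. Of 35 tested genes of fatty acid oxidation and PPAR signalling, 29 had positive changes (50.6% over all genes), with a median of 0.20. Of the 35, 3 were called higher (1.52% over all genes) and 0 lower (0.623%). Pnpla2, the triglyceride lipase of cardiac lipid droplets, had 10.20, 10.62, 10.51 and 10.63 in AngIV, 10.61, 10.43, 10.18 and 10.08 in DM, and 9.64, 9.85, 9.74 and 9.74 in NC. AngIV was 1.68-fold above NC without overlap (0.75 ± 0.13, adjusted p = 0.00970). Cpt1a, which passes fatty acids into mitochondria, was 1.81-fold higher (adjusted p = 0.0329), and the fatty acid transporter Slc27a1 was 1.75-fold higher (0.0447). Cpt1a and Slc27a1 were not called with the atrial covariate (adjusted p = 0.0822 and 0.0778), leaving 1 called gene on the list, and without NC replicates 1 and 3 there were 0. Pdk4, the kinase that blocks pyruvate oxidation and a marker of PPAR activity, had 7.34, 9.57, 8.98 and 8.67 in AngIV, 10.31, 9.73, 9.18 and 8.58 in DM, and 8.03, 8.44, 8.36 and 7.32 in NC. AngIV replicate 1 lay near the bottom of the NC range, and the change was 0.60 ± 0.42 (adjusted p = 0.476). Ucp3, a further PPAR target, had 5.98, 8.58, 7.68 and 6.67 in AngIV, 8.68, 8.31, 7.98 and 7.57 in DM, and 6.43, 7.14, 7.07 and 5.98 in NC, with the same low array (0.58 ± 0.44, adjusted p = 0.519).

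AngIV replicate 1 also stood apart for Bdh1, an enzyme of ketone oxidation, with 7.56, 5.93, 5.86 and 5.93 in AngIV, 5.53, 5.76, 6.97 and 7.29 in DM, and 8.00, 7.23, 7.54 and 8.23 in NC. Bdh1 did not pass with all arrays (-1.43 ± 0.42, adjusted p = 0.0824) and passed without AngIV replicate 1 (-1.84, adjusted p = 0.0260). Of 25 genes of glucose uptake, glycolysis and glycogen, 2 were called higher (1.52% over all genes) and 0 lower (0.623%). They were Pfkfb3 (an activator of glycolysis) and Pygb (a glycogen phosphorylase, 1.34-fold). Leaving out 1 array at a time gave 0 to 1 called higher on this list. With the atrial covariate there was 1, and without NC replicates 1 and 3 there were 0. The glucose transporters Slc2a4 and Slc2a1 had changes of -0.03 and 0.13. None of 35 oxidative phosphorylation and TCA cycle genes was called in limma (0 at an adjusted p under 0.05, against 2.15% over all genes), with a median of -0.01.

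Matrix genes went both ways. Of 45 tested, 18 had positive changes (50.6% over all genes) and 27 negative ones, with a median of -0.11. Of the 45, 2 were called lower (0.623% over all genes) and 2 higher (1.52%). Col3a1, a fibrillar collagen (chromosome 1), had 6.63, 5.88, 5.73 and 5.83 in AngIV, 6.45, 6.62, 6.91 and 6.95 in DM, and 7.51, 6.72, 7.18 and 7.33 in NC. It was 2.25-fold lower without overlap (-1.17 ± 0.20, adjusted p = 0.00970), with AngIV replicate 1 closest to NC. Col6a2, a chain of microfibrillar collagen, was 1.55-fold lower (-0.63 ± 0.12, adjusted p = 0.0138). The higher genes were Timp3, an inhibitor of matrix proteases (2.12-fold, 1.09 ± 0.20, adjusted p = 0.0148, or 0.0501 without NC replicate 2), and Tgfbr3, a co-receptor of TGF-beta (1.49-fold, adjusted p = 0.0285). Col1a1 (-0.42 ± 0.16, adjusted p = 0.167), Col1a2 (-0.28) and Tgfb1 (0.06) were not called. Of 11 fibroblast markers 2 had positive changes (50.6% over all genes) and 9 negative ones, and 0 were called (2.15% over all genes). The median of these markers was -0.28, with means of 6.31 to 6.60 in AngIV, 6.46 to 6.86 in DM and 6.54 to 7.06 in NC. Their median was -0.07 with the atrial covariate and -0.14 without NC replicates 1 and 3. Their part was not tested. With the atrial covariate the median of the matrix list turned to 0.08, and Col3a1 was -1.12; without NC replicates 1 and 3 the median was 0.07 and Col3a1 was -1.01 (adjusted p = 0.101).

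Among sarcomere and stress genes, Myl1, a myosin light chain (chromosome 1), had 6.32, 6.88, 6.09 and 6.00 in AngIV, 7.15, 6.83, 6.75 and 6.92 in DM, and 7.96, 7.87, 7.70 and 7.60 in NC. It was 2.75-fold lower without overlap (-1.46 ± 0.17, adjusted p = 0.00106). With all arrays it was the only call among 11 cardiac stress and fetal genes (0.623% called lower over all genes). Myh7, the slow myosin heavy chain that is raised in stressed rodent ventricles, had 10.98, 10.82, 11.44 and 11.57 in AngIV, 10.74, 11.58, 10.31 and 9.84 in DM, and 10.27, 9.75, 10.22 and 10.01 in NC. AngIV and NC did not overlap, and the change of 1.14 ± 0.28 missed the threshold with all arrays (adjusted p = 0.0518). With the atrial covariate Myh7 was called higher (1.46, adjusted p = 0.0258). Without NC replicates 1 and 3 it was not called (1.32, adjusted p = 0.129). Nppa and Nppb, which encode natriuretic peptides, had changes of -0.35 and -0.27 and were not called, and Nppa turned positive (1.20) with the atrial covariate. Lrrc10, a cardiomyocyte sarcomere protein, had 8.86, 8.93, 9.0 and 9.01 in AngIV, 8.16, 8.68, 8.19 and 7.99 in DM, and 7.77, 7.61, 7.62 and 7.96 in NC. AngIV stood above both groups on every array and was 2.31-fold above NC (1.21 ± 0.13, adjusted p = 0.00106). Slc41a3, a magnesium transporter, had 6.73, 6.62, 6.55 and 6.79 in AngIV, 7.21, 6.97, 7.93 and 7.70 in DM, and 7.99, 8.22, 8.21 and 8.05 in NC. AngIV stood below both groups on every array and was 2.72-fold below NC (-1.44 ± 0.17, adjusted p = 0.00114).

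Abat and Epha4 were, with Arntl, the genes also called between DM and NC. Abat, which breaks down the transmitter GABA, had 6.73, 5.74, 5.76 and 5.97 in AngIV, 5.15, 5.16, 5.66 and 5.95 in DM, and 7.06, 7.46, 7.46 and 7.36 in NC. It was 2.43-fold lower in AngIV than in NC (-1.28 ± 0.22, adjusted p = 0.00925), with DM also below every NC array. Epha4, a receptor for ephrins, had 5.90, 5.45, 5.64 and 6.07 in AngIV, 5.66, 5.63, 5.40 and 5.80 in DM, and 6.54, 6.62, 6.81 and 6.62 in NC. It was 1.85-fold lower (-0.88 ± 0.13, adjusted p = 0.00617), and AngIV and DM overlapped. Adcy6, the main adenylyl cyclase of heart muscle, was 1.99-fold higher (adjusted p = 0.00573), Eef2k, a kinase that slows translation elongation, 1.79-fold (0.00617), and Tspan4, a tetraspanin, 2.22-fold (0.00149). Herpud1, a factor of endoplasmic reticulum protein disposal, had 9.67, 10.14, 10.04 and 10.60 in AngIV and 9.01, 8.89, 9.16 and 9.01 in NC, a 2.13-fold difference (adjusted p = 0.00617). It was the only call among 22 genes of endoplasmic reticulum stress (1.52% called higher over all genes). Bcl2l1, which protects mitochondria from apoptosis, was 2.41-fold higher (adjusted p = 0.0192). Cyp1a1, a target of the aryl hydrocarbon receptor, had 3.43, 5.67, 5.52 and 8.30 in AngIV and 3.19, 2.81, 2.42 and 2.10 in NC. Its change of 3.10 ± 0.68 (adjusted p = 0.0310), near background, passed in only 2 of the 8 fits that left out an array. Fmo2, a flavin monooxygenase, was 2.74-fold higher (0.0210).

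The other genes called by rank or list followed no single list. Fam117b was 2.6-fold higher (adjusted p = 0.0136) and Mid1ip1, a regulator of lipid synthesis, 1.83-fold (0.00573). Etv5, an ERK-dependent transcription factor, had a change of 1.78 ± 0.29 (adjusted p = 0.00780), near background. Mylip, which degrades the LDL receptor, was 1.91-fold higher (adjusted p = 0.0165), the immediate early gene Ier3 1.67-fold (0.0254), the ion channel gene Trpm7 1.59-fold (0.0249), the proteasome subunit gene Psmd4 1.49-fold (0.0402) and the fatty acid binding protein gene Fabp4 1.32-fold (0.0348). Fabp4 stood on the adipocyte marker list, whose other 5 tested genes were not called. Tnfaip2 was 2.01-fold lower (adjusted p = 0.00989), the integrin gene Itgb6 1.80-fold (0.00833), the membrane protein gene Mal 1.71-fold (0.00780), the lysosomal amino acid transporter gene Slc38a9 1.51-fold (0.00819) and Hikeshi, which carries HSP70 into the nucleus, 1.51-fold (0.00819). Hspb1, a small heat shock protein, was 1.29-fold lower (adjusted p = 0.0485). It was the only call among 22 chaperone genes (0.623% called lower over all genes). Of the 22, 5 had positive changes (50.6% over all genes) and 17 negative ones. Of 22 inflammation genes 0 were called with limma (2.15% over all genes). The chemokine gene Ccl8 had a change of 2.74 ± 0.73 (adjusted p = 0.0604), near background. Of 11 renin-angiotensin genes tested, 0 were called with limma (2.15% over all genes). Agtr1a, a receptor of angiotensin II, had a change of 0.27 (adjusted p = 0.261), and Ace, which makes angiotensin II, had 0.16.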

How the data were processed

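Myocardium of 12 mice, 4 in each of 3 groups, was profiled on 1-colour Affymetrix arrays from 6 micrograms of total RNA, per the labels' protocols. The authors deposited a table of log2 signals per probe set; RMA is named per the submitters' processing notes, and the genome build and software version are not given in the sources used here. RMA equalises the arrays' distributions, so a shift of most genes would be hidden. The number of arrays limits the precision.

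Platform annotation gave 1 symbol to 19572 of 22206 transcript probe sets and none to 2634. For the 55 genes with several probe sets the one with the highest mean was used. The dimmest 30% of genes (mean under 3.40) were left out. Group means were fitted over all 12 arrays with limma 3.58.1 in R 4.3.3 (lmFit, eBayes), and p-values were adjusted by Benjamini-Hochberg over 13653 genes. The p-values set a change against the spread between mice within a group. That spread was pooled over the 3 groups and drawn towards that of other genes.

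Groups were taken from titles. The gene lists (41 lists, 681 genes tested) and the comparison were chosen with earlier results of these data known. Genes named are the 12 called genes of smallest p and the 5 of largest change in each direction that lay above background in both groups, the called members of every list, a set of fixed genes, and some of the 3 members of smallest p of each list. A gene that the rule names is not reported here. Alternatives covered filtering, probe set choice, centring, array weights, robust and trended variance, the replicate block, an atrial covariate and left-out arrays. Sequences are from RefSeq (GRCm38.p6).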

Additional observations from a re-analysis of the deposited data

Results flagged for a closer look

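In 14 of 270 groups of 4 arrays examined, 1 array lay far from the other 3, with a gap to its neighbour above Dixon's 95% critical value; chance alone flags about 1 in 20 groups. AngIV replicate 1 was the highest of its group for Bdh1 (7.56, the next at 5.93), Oxct1 (10.4, the next at 10.1), Col3a1 (6.63, the next at 5.88) and Apln (3.90, the next at 3.57), and the lowest for Hikeshi (6.39, the next at 6.59). Bdh1 and Oxct1 are both enzymes of ketone oxidation. AngIV replicate 2 was highest for Dusp1 (7.93, the next at 7.46) and lowest for Foxo1 (5.25, the next at 5.72). AngIV replicate 4 was lowest for Ms4a7 (4.12, the next at 5.82), Vcam1 (5.40, the next at 6.32), Anpep (5.61, the next at 6.36) and Casq2 (9.66, the next at 9.81). In NC, replicate 2 was highest for Mt1 (9.87, the next at 9.72) and lowest for Sqstm1 (9.09, the next at 9.28), and replicate 4 was highest for Apaf1 (4.08, the next at 3.72).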

How the results depend on the processing

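The count of 293 called genes (208 higher, 85 lower) moved by more than 1.5 times under several alternatives. It was 466 (316 higher, 150 lower) with only the 8 arrays of AngIV and NC, 576 (407 and 169) with a variance trend, 492 (349 and 143) with the dimmer 50% of genes left out, and 643 (434 and 209) over genes above the negative controls. Without a filter there were 198 calls, 56 of them lower. Leaving out each array in turn gave 104 to 251 calls, 72 to 171 higher and 28 to 80 lower. Without NC replicates 1 and 3 there were 25 (20 higher, 5 lower). Leaving out other NC pairs, chosen after seeing the data, gave 35 (17 and 18) without 1 and 2, 12 (8 and 4) without 3 and 2, 54 (39 and 15) without 1 and 4, 119 (96 and 23) without 3 and 4, and 17 (10 and 7) without 2 and 4. The variance trend was fitted on the same arrays and genes as the main test. The other settings named here have fewer arrays or another set of genes by construction. Beyond that, the cause was not tested. The remaining alternatives, other than the replicate block, gave 241 to 391 calls.

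Deviations of same-numbered AngIV and NC arrays correlated at -0.014, 0.208, -0.115 and 0.087. So few correlations, of mixed sign, cannot settle whether the numbers pair the mice, and DM arrays were not examined in this way. With the replicate block 218 genes were called (154 higher, 64 lower), 196 of them among the 293.

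Of 135 single genes followed, 71 were called; none of the called genes changed sign under any alternative, and 15 were called under every one that gave them a value. All 23 reversals were in 10 genes that were not called. Leaving out 1 array at a time gave -0.036 to 0.14 for Foxo1, -0.14 to 0.074 for Foxo4, -0.67 to 0.10 for Nppa, -0.58 to 0.073 for Nppb, -0.096 to 0.050 for Slc2a4 and -0.076 to 0.13 for Tgfb1. Centred on positive controls, Foxo1 was -0.017. With the atrial covariate Foxo4 was 0.11, Nppa 1.20 and Myh6 -0.0083. Myl7 was 0.11 and Sln 0.0024 in that setting, but both are part of the covariate, so their small changes follow by construction. Without NC replicates 1 and 3 Foxo4 was 0.14, Nppa 0.16 and Becn1 -0.024.

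Signal over background limits 105 of the 293 called genes, which lay near background in at least 1 group.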

Other observations

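Of the 293 called genes, 237 were on none of the lists; those named here were chosen after their values were seen, so they describe no gene group, and their calls under the alternatives are not given. The ATP synthase subunit gene Atp5g1 had 10.85, 10.72, 10.90 and 10.84 in AngIV, 10.79, 10.78, 11.15 and 11.03 in DM, and 11.19, 11.32, 11.30 and 11.31 in NC (log2 change -0.45, adjusted p = 0.0329). Atp5d had a change of -0.44 (0.0366), the mitochondrial ribosomal protein gene Mrpl33 of -0.65 (0.0425), Mrpl34 of -0.55 (0.0437), the complex I assembly factor Ndufaf4 of -0.52 (0.0461) and the cristae protein gene Stoml2 of -0.48 (0.0405). Myom2, an M-band protein, was 1.83-fold higher (adjusted p = 0.00970), Tcap, the titin cap, 1.72-fold (0.0164) and Mylk3, the cardiac myosin light chain kinase, 1.61-fold (0.0235). The listed respiratory chain genes had 0 calls of 35, and the cardiomyocyte markers 0 of 14, against 2.15% over all genes.

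Retnla, a secreted protein of alternatively activated macrophages, had the largest negative change, with 4.25, 3.61, 3.68 and 3.31 in AngIV, 3.76, 3.98, 4.70 and 5.91 in DM, and 6.16, 6.94, 6.55 and 5.25 in NC (-2.51 ± 0.41, adjusted p = 0.00819, near background). Its direction was opposite to that of 16 of the 17 macrophage markers. Serpinh1, the collagen chaperone, was 1.66-fold lower (adjusted p = 0.0158). Plin4, a lipid droplet protein, was 1.74-fold higher (0.0208) and the triglyceride synthase Dgat2 1.49-fold (0.0136). Xdh, xanthine dehydrogenase, was 2.20-fold higher (0.0158) and Cited2, a transcriptional co-regulator, 2.32-fold (0.00926). Flcn and Rragc, which signal at the lysosome to mTORC1, were 1.53-fold and 1.39-fold higher (0.0436 and 0.0208). Wee1 and Usp2, both known for daily rhythms and not on the clock list, were 1.82-fold and 1.59-fold higher (0.00778 and 0.0348), and the cold-inducible RNA-binding protein gene Cirbp was 1.74-fold higher (0.00989). F830016B08Rik, an interferon-responsive gene, had 6.97, 5.96, 8.01 and 6.71 in AngIV, 4.24, 5.35, 5.63 and 5.26 in DM, and 5.47, 5.64, 5.46 and 5.05 in NC (1.51, adjusted p = 0.0393, near background). Cd274, the checkpoint ligand PD-L1, had a change of 0.89 (adjusted p = 0.0249, near background). Jak2, a kinase of the interferon gamma receptor, was 1.52-fold higher (0.0335).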
